A study of Mus musculus with 30 samples.

Results

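The 2-5 oligoadenylate synthetase (Oas) genes were followed through mouse mammary glands with and without a Her2/Neu oncogene and with and without the type I interferon receptor subunit IFNAR1. All measured genes whose symbol starts with Oas were taken, which gave 8 genes with 10 probes, of 11463 genes and 20896 probes in all. They are Oas1a and Oas1b with 2 probes each, and Oas1c, Oas1f, Oas2, Oas3, Oasl1 and Oasl2 with 1 probe each. No probe carried the symbol Oas1d, Oas1e, Oas1g or Oas1h. All 10 probes passed the filter on blank values, which required values in at least 50% of each group's glands. The 30 glands fell into 4 groups: 9 Her2/Neu+/IFNAR1-/- glands with oncogene and receptor loss, 6 Her2/Neu+ glands with the oncogene, 8 IFNAR1-/- glands with receptor loss, and 7 WT glands with neither. All were inguinal glands from 129sv mice aged 19 weeks, each on 1 array of its own. The promoter that drives the oncogene is not given in the sources used here.

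Oas enzymes are sensors of double-stranded RNA. When bound to it, the active members of the family join ATP into 2-5 linked oligoadenylates, called 2-5A, a second messenger of the antiviral response. Not every member is active, and enzyme activity was not measured here. Oas genes are classical targets of type I interferon, which signals through IFNAR1 and IFNAR2 to the transcription factor complex ISGF3.

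Each value is the log2 ratio of gland RNA over a universal mouse reference RNA on the same array, so a level is compared between groups within a gene and never between genes. Between 17485 and 20801 probes had a value on each array, and the arrays correlated with each other at 0.345 to 0.858. The table holds no intensities, so how far a signal stood above background is unknown. Precision depends on how many arrays a group has and on how their values spread. Between 2639 and 10385 values of an array occurred digit for digit more than once on that array. These are called repeated values here, how they arose is not stated, and 75% of them lay within 0.3 of 0. The 2 Ifnar1 probes did not check the labels: the Ifnar1 mean differed by -0.23 ± 0.56 (log2, SE) between IFNAR1-/- and WT glands, and no source used here places the probes relative to the deletion. Markers of the tissue were present, with a mean adipocyte marker level of 4.79 to 5.62 over all arrays, and luminal epithelial markers averaged between 2.28 and 2.80 in the groups, with -0.10 on Her2/Neu+ array 114. Skeletal muscle markers averaged 4.38, 4.72 and 5.10 on IFNAR1-/- arrays 41, 42 and 44 and 4.18 on Her2/Neu+/IFNAR1-/- array 106, against a highest WT value of -0.01. In whole glands, fewer cells of a type and less RNA per cell cannot be told apart.

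Oas1a, a synthetase of the small Oas1 class, was measured by probe 1805 with no repeated value on any array. Its log2 ratio ran from -3.17 to 2.47 with a median of -0.22 in Her2/Neu+/IFNAR1-/- glands. It ran from -1.16 to 3.03 (median 1.83) in Her2/Neu+ glands, from -6 to -3.49 (median -4.93) in IFNAR1-/- glands and from -3.88 to -1.25 (median -2.59) in WT glands. No Her2/Neu+ array fell as low as any WT array, all Her2/Neu+/IFNAR1-/- arrays lay above all IFNAR1-/- arrays, and 7 of 8 IFNAR1-/- arrays lay below all WT arrays. IFNAR1-/- arrays 44 and 47 stood at the -6 limit of the deposited scale, so the true ratio there may be lower. The second Oas1a probe, 4051, held repeated values on 22 of 30 arrays, on all 8 IFNAR1-/- and 6 of 7 WT arrays among them. Probe 4051 averaged 0.80 ± 1.43 in Her2/Neu+/IFNAR1-/- (SD, n = 9), 1.52 ± 1.80 in Her2/Neu+ (n = 6), -0.99 ± 1.06 in IFNAR1-/- (n = 8) and -0.83 ± 0.92 in WT glands (n = 7). The Oas1a gene mean, which is the average of these probes, therefore has narrower group differences than probe 1805.

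Oas1f, another member of the Oas1 cluster, followed the same order of groups. Its log2 ratio ran from -3.04 to 2.63 (median -0.90) in Her2/Neu+/IFNAR1-/-, from -0.33 to 2.76 (median 1.79) in Her2/Neu+, from -5.13 to -2.31 (median -3.71) in IFNAR1-/- and from -3.53 to -1.51 (median -2.58) in WT glands. Her2/Neu+ and WT arrays did not overlap, while the lowest Her2/Neu+/IFNAR1-/- arrays fell among the WT arrays. Oas1f values were repeated on 6 of 30 arrays, and the lowest Her2/Neu+ value, on array 114, was among them. Oas2, a larger synthetase, ran from -2.36 to 2.87 (median -0.24), from -0.09 to 3.28 (median 0.83), from -4.82 to -0.96 (median -2.97) and from -2.66 to -0.19 (median -1.25) in Her2/Neu+/IFNAR1-/-, Her2/Neu+, IFNAR1-/- and WT glands in that order. Every Her2/Neu+ array lay above every WT array for Oas2 too, although 3 Her2/Neu+ arrays lay close to 0, and 2 of these hold repeated values. Over all groups, Oas2 values were repeated on 10 of 30 arrays.

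Oasl1 and Oasl2 are the Oas-like genes. Mouse Oasl1 makes no 2-5A and is known to restrain translation of Irf7, a factor that amplifies interferon production, whereas mouse Oasl2 is an active synthetase. Oasl2 ran from -1.06 to 3.05 (median 0.18) in Her2/Neu+/IFNAR1-/-, from -0.09 to 3.44 (median 1.78) in Her2/Neu+, from -3.34 to -0.79 (median -2.11) in IFNAR1-/- and from -2.83 to -0.87 (median -1.54) in WT glands. IFNAR1-/- and WT arrays overlapped for Oasl2, and both lay below all Her2/Neu+ arrays. Oasl2 values were repeated on 10 of 30 arrays, and the lowest Her2/Neu+ value, on array 114, was among them. Oasl1 ran from -4.18 to -0.76 (median -3.06) in Her2/Neu+/IFNAR1-/-, from -3.27 to -0.04 (median -0.66) in Her2/Neu+, from -5.23 to -3.36 (median -4.58) in IFNAR1-/- and from -4.60 to -2.49 (median -3.06) in WT glands. Her2/Neu+ array 115 was the exception among Her2/Neu+ glands, lying within the WT range for Oasl1 only among these genes.

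The other members showed no such order. Oas1b is known for flavivirus resistance in mice and is annotated as a transcribed pseudogene in the RefSeq table. Its probe 10312, with no repeated value, averaged 0.72 ± 0.32 in Her2/Neu+/IFNAR1-/- (SD, n = 9), 0.50 ± 0.25 in Her2/Neu+ (n = 6), 0.37 ± 0.42 in IFNAR1-/- (n = 8) and 0.53 ± 0.19 in WT glands (n = 7). The second Oas1b probe, 34282, was repeated in 18 of 27 values and stood near 0 on most arrays, with 4.92 on Her2/Neu+/IFNAR1-/- array 110 and 4.39 on WT array 56. Oas1c, a further Oas1 paralog, was repeated on 18 of 30 arrays, and its group medians lay between -0.04 and -0.01. Oas3, the largest synthetase, which responds to long double-stranded RNA in human cells, had 23 values of which 22 were repeated, and its group medians lay between -0.088 and -0.0025. The arrays therefore carried almost no measurement of Oas3 and little of Oas1c. Whether the Oas1 probes tell the near-identical Oas1 copies apart was not tested.

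**Figure D1:**
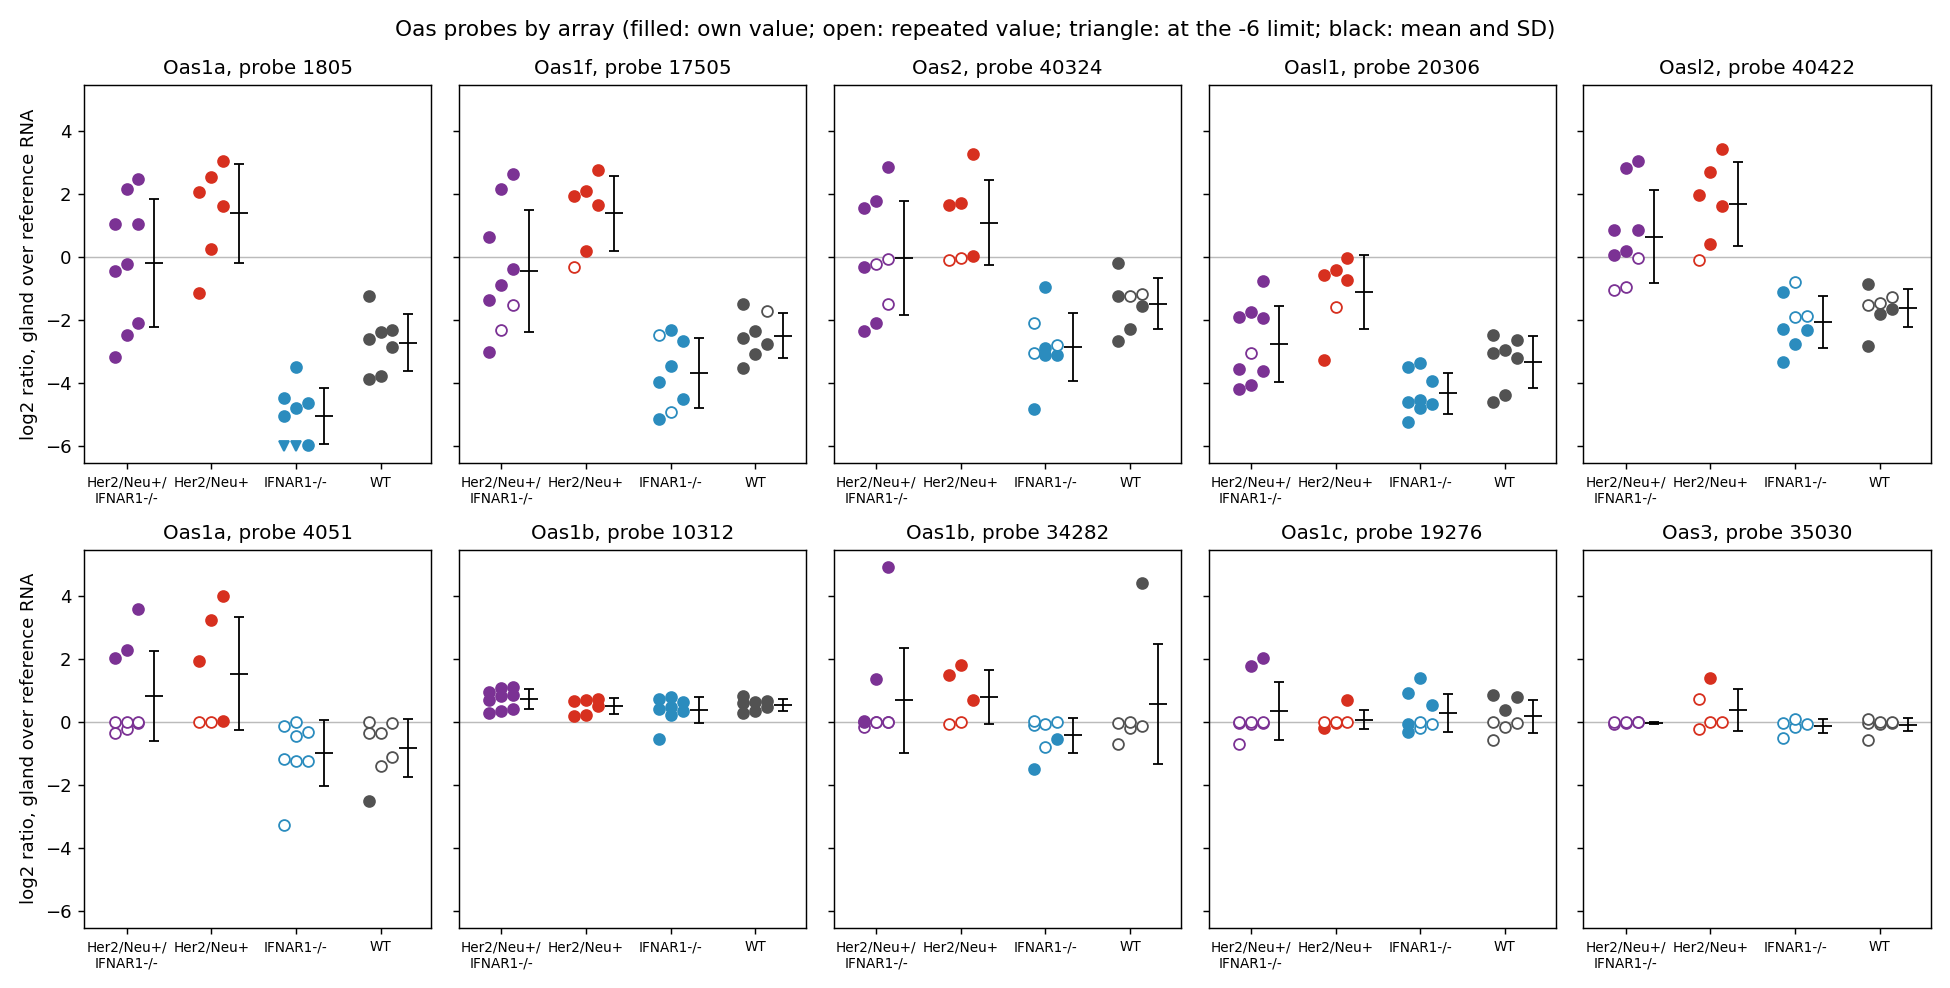
The log2 ratio of gland over reference RNA (y axis) is plotted for each Oas probe by group (x axis), with 1 point per array, open points for repeated values, triangles for values at the -6 limit, and black bars for the mean and SD. In the upper row, the Her2/Neu+ arrays lie above the WT arrays for each gene except Oasl1, where array 115 falls among them, while in the lower row most points of Oas1b, Oas1c and Oas3 lie close to 0.

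With the receptor intact, 3 of 8 Oas genes rose in oncogene-bearing glands. They were Oas1f, Oasl2 and Oas1a, and none fell. Among all genes tested in Her2/Neu+ against WT, 0.113% rose by the same rule, an adjusted p under 0.05 from limma with Benjamini-Hochberg adjustment over 11463 genes. Oas1f averaged 1.38 ± 1.19 in Her2/Neu+ and -2.50 ± 0.72 in WT glands (SD, n = 6 and 7), a change of 3.89 ± 0.73 (SE) or 14.8-fold with a limma adjusted p of 0.0158. Oasl2 changed by 3.30 ± 0.60, or 9.84-fold (limma adjusted p = 0.0130). Oas1a changed by 3.24 ± 0.65, or 9.42-fold, as a gene mean (limma adjusted p = 0.0268), and by 4.12 ± 0.78, or 17.35-fold, on probe 1805 alone (adjusted p = 0.0173 over all probes, of which 0.0819% rose). Its second probe, 4051, differed by 2.35 ± 0.70 without passing (limma adjusted p = 0.1735 over all probes). Oas2 and Oasl1 differed by 2.58 ± 0.72 and 2.23 ± 0.53 without passing (limma adjusted p = 0.145 for Oas2, 0.0855 for Oasl1). All 6 Her2/Neu+ values exceeded every WT value for Oas1a, Oas1f, Oas2 and Oasl2, and 5 of 6 did for Oasl1. Over all genes, 0.34% had every Her2/Neu+ array above every WT array. Oas1b, Oas1c and Oas3 differed by 0.04 ± 0.38, -0.10 ± 0.37 and 0.47 ± 0.23. The median change of the 8 Oas genes was 2.40, against -0.02 over all genes.

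With the receptor lost, 4 of 8 Oas genes rose in oncogene-bearing glands: Oas1a, Oasl2, Oas1f and Oas2. None fell, and 0.942% of all genes rose in Her2/Neu+/IFNAR1-/- against IFNAR1-/- glands. The Oas1a gene mean was 0.31 ± 1.58 in Her2/Neu+/IFNAR1-/- and -3.02 ± 0.91 in IFNAR1-/- glands (SD, n = 9 and 8), a change of 3.33 ± 0.57 (SE) or 10.05-fold (limma adjusted p = 0.00460), with 9 of 9 arrays above all IFNAR1-/- arrays, as was so for 0.157% of all genes. Probe 1805 changed by 4.86 ± 0.68, or 29.1-fold, which may understate the change because 2 IFNAR1-/- arrays stand at the limit (limma adjusted p = 0.000463 over all probes, of which 0.789% rose). Probe 4051 differed by 1.79 ± 0.61 without passing (limma adjusted p = 0.1285 over all probes). Oas1f changed by 3.22 ± 0.64, or 9.33-fold (limma adjusted p = 0.0118), and Oasl2 by 2.70 ± 0.53, or 6.51-fold (adjusted p = 0.0112), each with 7 of 9 arrays above all IFNAR1-/- arrays. Oas2 changed by 2.81 ± 0.63, or 7.01-fold (limma adjusted p = 0.0295), with 6 of 9 arrays above. Oasl1 differed by 1.58 ± 0.47 without passing (limma adjusted p = 0.0805). With repeated values missing Oasl1 passed in both oncogene comparisons, at 2.33 (adjusted p = 0.0419) in Her2/Neu+ minus WT and 1.61 (adjusted p = 0.0473) here. It did not pass where values at the limit were then kept (adjusted p = 0.0515 and 0.0578). In this comparison Oas1b, Oas1c and Oas3 differed by 0.65 ± 0.33, 0.05 ± 0.32 and 0.11 ± 0.24. The median change of the Oas genes was 2.14, against 0.15 over all genes. The IFNAR1-/- group includes the 3 arrays with high skeletal muscle markers, and without these 3 the same 4 genes passed.

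**Figure D2:**
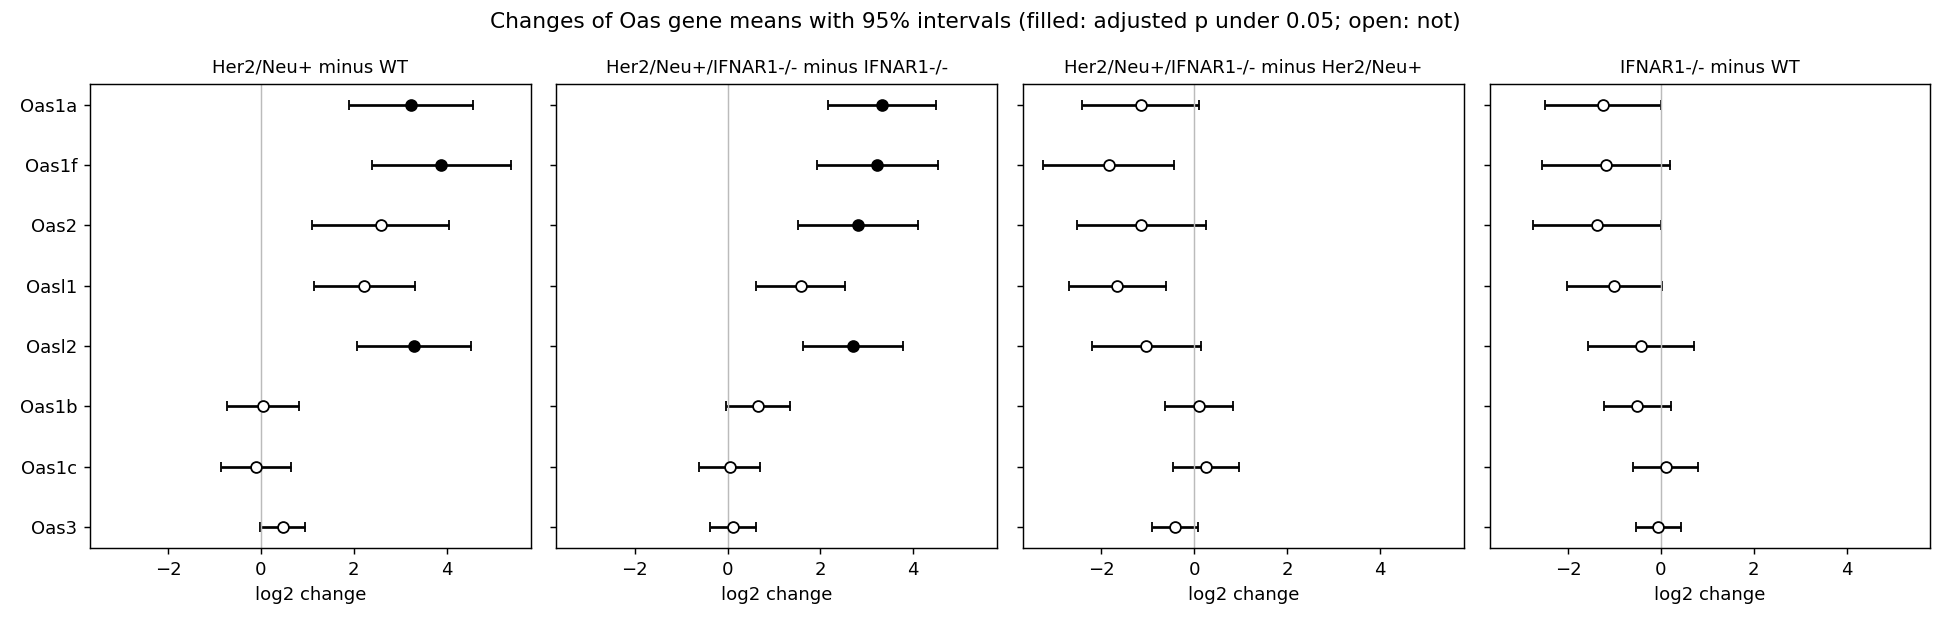
The log2 change of each Oas gene mean (x axis) is plotted with its 95% interval for 4 comparisons, with genes on the y axis and filled points for an adjusted p under 0.05. Both oncogene comparisons, on the left, show changes between 1.58 and 3.89 for Oas1a, Oas1f, Oas2, Oasl1 and Oasl2, while no change passed in the receptor comparisons on the right.

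Block numbers in the labels and the order of samples point to 8 slides in 2 sets of 15 arrays, which the labels do not state, and no inferred slide holds both groups of either oncogene comparison, so slide and group cannot be told apart within a slide. With the slide as a random block, 0 of 8 genes passed in Her2/Neu+ minus WT, at changes of 3.74 for Oas1f, 3.20 for Oasl2 and 3.13 for Oas1a (limma adjusted p = 0.166, 0.166 and 0.224). In Her2/Neu+/IFNAR1-/- minus IFNAR1-/-, 0 of 8 passed when the slide correlation was estimated from genes measured on all arrays and 1 of 8, Oas1a, when it was estimated from all genes, a choice added after the result of 0 had been seen. Oas1a there changed by 3.23 (limma adjusted p = 0.0643) and 3.25 (adjusted p = 0.0362), and probe 1805 passed both ways. Within array set 1 the change in Her2/Neu+ minus WT was 3.70 ± 0.81 for Oas1a, 4.45 ± 0.93 for Oas1f and 3.67 ± 0.74 for Oasl2 (SE), and within set 2 it was 2.50 ± 1.12, 2.95 ± 1.25 and 2.51 ± 0.97. In Her2/Neu+/IFNAR1-/- minus IFNAR1-/-, set 1 gave 2.70 ± 0.88, 3.22 ± 1.00 and 3.35 ± 0.80 and set 2 gave 3.75 ± 0.78, 3.21 ± 0.86 and 2.31 ± 0.67 for these genes in the same order. Oas2 changed by 3.05 ± 0.94 in set 1 and 2.52 ± 0.76 in set 2 there. In set 1 each group lay on 1 inferred slide of its own, so the SE there holds no spread between slides. In set 2 the Her2/Neu+ arrays were 114 and 119, on inferred slide 8. The WT arrays of set 2 were 53, 54 and 57, on inferred slide 6. The sets are therefore not replications free of slide. No Oas gene mean passed within a set of 15 arrays. Over all genes, 1 of 11463 passed in set 1 and 745 of 11385 in set 2 in Her2/Neu+ minus WT, and 2 of 11292 and 6 of 11463 in Her2/Neu+/IFNAR1-/- minus IFNAR1-/-. Single arrays also decided calls: in Her2/Neu+ minus WT, 0 genes passed without Her2/Neu+ array 118 or 120 and 1 without array 119. A fit of the Her2/Neu+/IFNAR1-/- and IFNAR1-/- groups alone left Oas1a as the one called gene, with limma adjusted p of 0.0639 for Oas1f, 0.0693 for Oas2 and 0.0503 for Oasl2, and Oas2 was lost without any 1 of 6 single arrays.

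**Figure D3:**
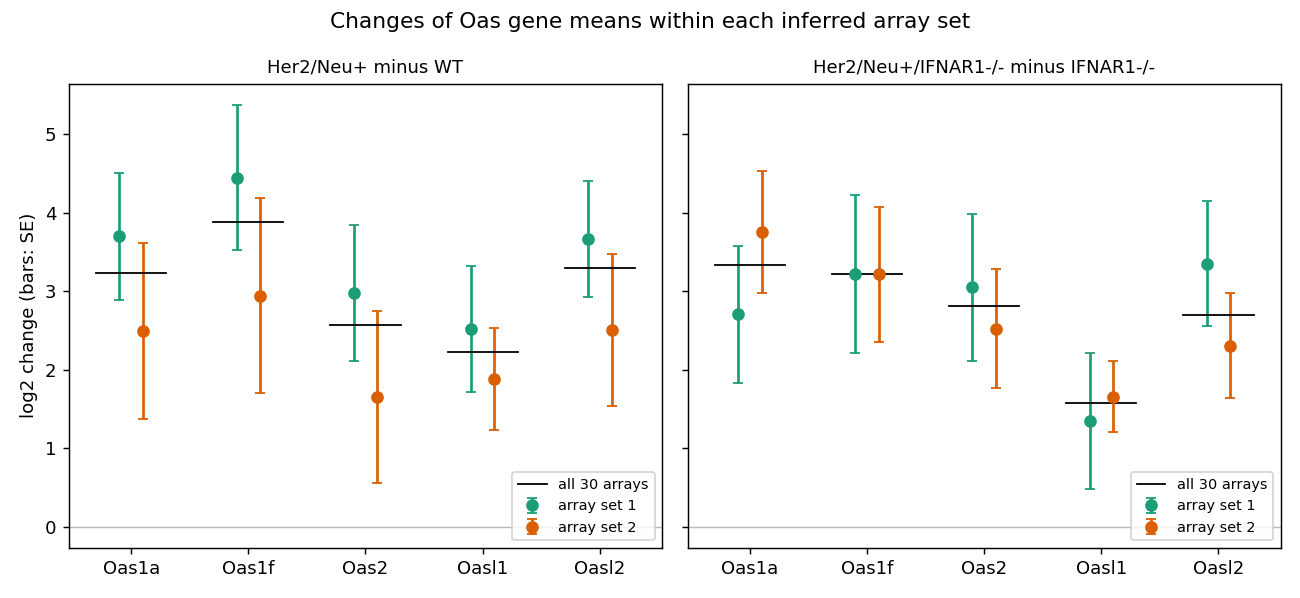
The log2 change of the gene mean (y axis, bars SE) is plotted for 5 Oas genes (x axis) within each inferred array set, with a line for the change over all 30 arrays. All changes are above 0 in both sets, from 1.35 for Oasl1 in set 1 of the right panel to 4.45 for Oas1f in set 1 of the left panel. In set 1 each group lies on 1 inferred slide of its own.

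Receptor loss in oncogene-bearing glands was set against the oncogene with the receptor intact. No Oas gene was called in Her2/Neu+/IFNAR1-/- minus Her2/Neu+ glands, where 0.0785% of all genes passed in either direction. In limma, 2 were lower at an unadjusted p under 0.05, against 4.18% of all genes. These were Oasl1, at -1.65 (95% interval -2.69 to -0.62), and Oas1f, at -1.84 (-3.25 to -0.43), at adjusted p-values of 0.236 for Oasl1 and 0.326 for Oas1f. Oas1a differed by -1.15 (-2.41 to 0.11), Oas2 by -1.14 (-2.53 to 0.25) and Oasl2 by -1.03 (-2.20 to 0.14). The intervals of Oas1a, Oas2 and Oasl2 include both 0 and falls of more than 2 on the log2 scale. The Oas median was -1.08, against 0.11 over all genes. For Oas1f, 6 of 9 Her2/Neu+/IFNAR1-/- arrays lay below every Her2/Neu+ array, while array 110 lay near the top of the Her2/Neu+ range.

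Receptor loss without the oncogene was read from IFNAR1-/- minus WT glands, where none of the 8 Oas genes passed and 0.0262% of all genes did. Oas1a and Oas2 had an unadjusted limma p under 0.05 in the downward direction, against 3.99% of all genes. The Oas1a mean differed by -1.24 (95% interval -2.48 to -0.0013) and Oas2 by -1.37 (-2.74 to -0.0047), and 6 of 8 IFNAR1-/- arrays lay below all WT arrays for Oas2. Probe 1805 of Oas1a differed by -2.33 (-3.81 to -0.84), and 7 of 8 arrays lay below all WT arrays. Its limma p was 0.00324 before and 0.613 after adjustment over all probes. The second Oas1a probe, 4051, differed by only -0.16 (-1.495 to 1.18), with repeated values on all 8 IFNAR1-/- arrays. Oasl1 differed by -1.001 (-2.02 to 0.02), Oas1f by -1.18 (-2.56 to 0.21) and Oasl2 by -0.43 (-1.58 to 0.72). Oas1b differed by -0.50 (-1.23 to 0.22), Oas1c by 0.10 (-0.59 to 0.80) and Oas3 by -0.055 (-0.54 to 0.43). Among Oas genes the median difference was -0.75, against -0.08 over all genes.

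Set against WT, none of the 8 Oas genes passed in the glands with both alterations (0.174% of all genes passed in either direction). Oasl2 came nearest, at 2.27 ± 0.55 (limma adjusted p = 0.0792), with 7 of 9 arrays above all WT arrays. It passed with array weights, with repeated values left out, and without Her2/Neu+/IFNAR1-/- array 104 or 106. Oas1a differed by 2.09 ± 0.59, Oas1f by 2.05 ± 0.66 and Oas2 by 1.44 ± 0.65, each, like Oasl2, at an unadjusted limma p under 0.05 (4 of 8, against 6.56% of all genes in that direction), whereas Oasl1 differed by 0.58 ± 0.48. Oas1b, Oas1c and Oas3 differed by 0.15 ± 0.35, 0.16 ± 0.33 and 0.06 ± 0.22, each less than its SE. The Oas median was 1.006, against 0.08 over all genes. Hence the order of group means was Her2/Neu+, Her2/Neu+/IFNAR1-/-, WT and IFNAR1-/- for Oas1a, Oas1f, Oas2, Oasl1 and Oasl2, and no difference between neighbours in that order passed. The comparisons share groups of arrays, so they are not independent of each other.

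The test of whether receptor loss changed the oncogene's effect is the interaction. No Oas gene passed (0.0174% of all genes did), and 0 had an unadjusted limma p under 0.05, against 9.62% of all genes. The interaction was 0.09 for Oas1a (95% interval -1.68 to 1.87), 0.23 for Oas2 (-1.72 to 2.19), -0.60 for Oasl2 (-2.24 to 1.04), -0.65 for Oasl1 (-2.10 to 0.80) and -0.67 for Oas1f (-2.64 to 1.31). For Oas1a, Oas1f, Oas2 and Oasl2 the interval includes differences of more than 1 on the log2 scale in either direction.

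Within groups, Oas1a, Oas1f, Oas2, Oasl1 and Oasl2 varied together from array to array, as the scatter of Oas1f on the others shows. After subtraction of group means, all 10 pairs among these genes correlated, with Pearson r from 0.604 to 0.877 and Spearman rho from 0.577 to 0.838 over 30 arrays. After adjustment over the 28 pairs of Oas genes, the permutation p was at most 0.00641 for r and at most 0.00972 for rho. These genes were grouped after their values were seen. Oas1a and Oas1f correlated most closely (r = 0.877, rho = 0.838, permutation p = 1e-05 for each, the smallest that the 100000 permutations can give). Without the 2 arrays farthest from the median, r over the 10 pairs ran from 0.474 to 0.845. It ran from 0.766 to 0.972 within array set 1 and from 0.45 to 0.833 within set 2. Of the other 18 pairs, 1 had an adjusted permutation p under 0.05, Oas1a with Oas3 (r = 0.43, rho = 0.423, adjusted p = 0.0349 and 0.0912, 23 arrays), and all but 1 Oas3 value are repeated. Each of these other pairs includes Oas1b, Oas1c or Oas3, and most Oas1c values are repeated too, so they are a weak comparison. Pairs of genes outside the family were not examined. In Her2/Neu+/IFNAR1-/- glands arrays 110 and 105 were the highest for Oas1a probe 1805, Oas1f, Oas2, Oasl1 and Oasl2, and both carry block number 1. With block number as a factor in the fit, the same genes passed in both oncogene comparisons as without it.

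**Figure D4:**
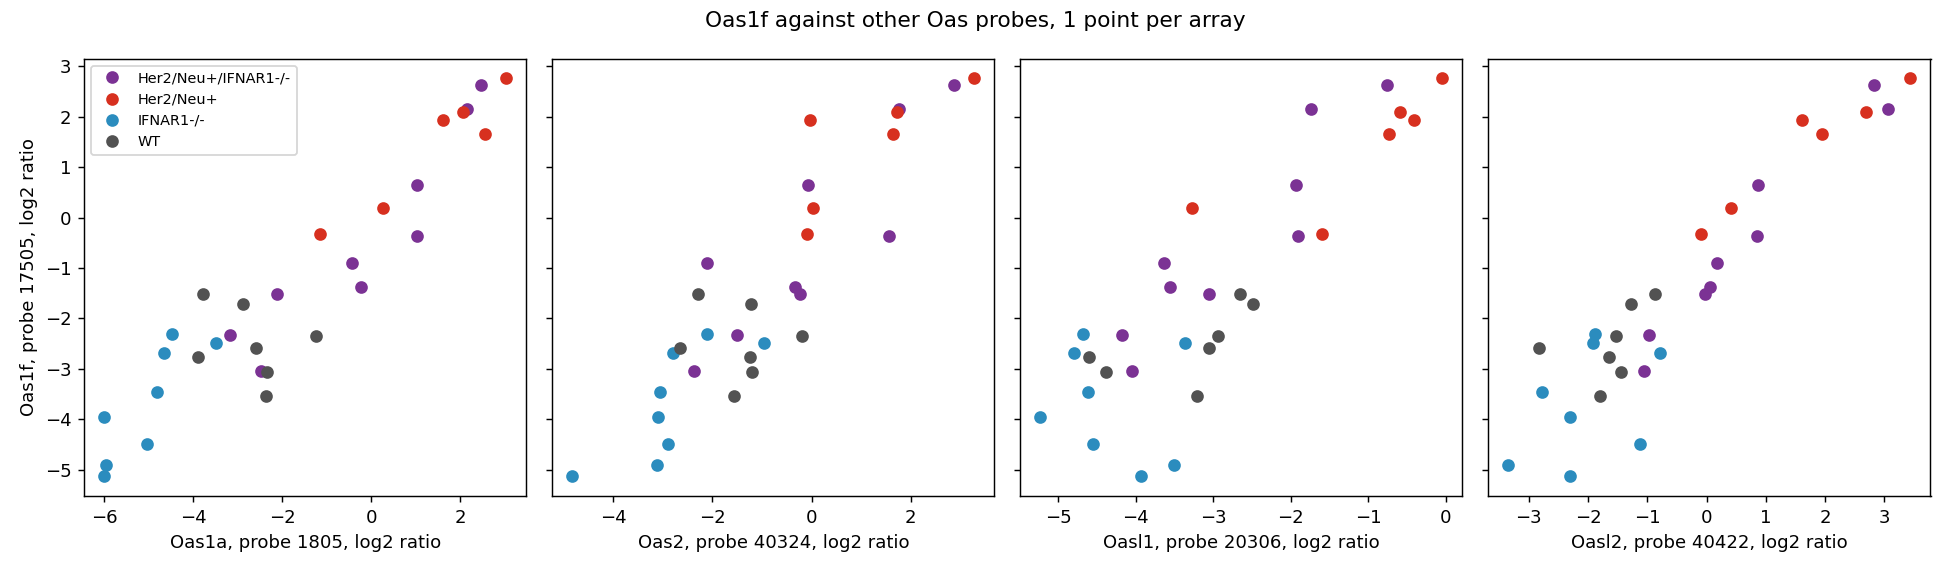
The log2 ratio of Oas1f (y axis) is plotted against that of Oas1a probe 1805, Oas2, Oasl1 and Oasl2 (x axes), with 1 point per array coloured by group. The points rise together in each panel, and the Her2/Neu+/IFNAR1-/- arrays spread from the IFNAR1-/- and WT arrays to the Her2/Neu+ arrays.

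The Oas genes lie at 2 places on chromosome 5 of GRCm38.p6. Oasl2 and Oasl1 are neighbours at chr5:114896926-114912245 and chr5:114923143-114937911, and the other genes form a cluster from the start of Oas2 at 120730333 to the end of Oas1d at 120921648. Of the 21 annotated genes within 5 places on either side of an Oas gene, 7 were measured and none passed in any comparison. The median change of these neighbours was -0.17 in Her2/Neu+ minus WT and 0.02 in Her2/Neu+/IFNAR1-/- minus IFNAR1-/- glands.

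Because Oas1a, Oas1f and Oasl2 passed in both oncogene comparisons while Oas1c did not, their upstream sequences are shown, each the 250 bases before the start used by the RefSeq promoter table, 5′ to 3′ on the gene's strand. For Oas1a, Oas1c and Oasl2 that start lies a little inside the gene's outermost annotated boundary, so these windows reach into the gene, and distances below are counted from the start of the promoter table. Capitals mark matches to GAAA followed by any 2 bases and GAAA, the core of the element that ISGF3 binds, searched on both strands (TTTC, any 2 bases and TTTC on the other). Overlapping matches are run together.
Oas1a, chr5:120907526-120907775, minus strand: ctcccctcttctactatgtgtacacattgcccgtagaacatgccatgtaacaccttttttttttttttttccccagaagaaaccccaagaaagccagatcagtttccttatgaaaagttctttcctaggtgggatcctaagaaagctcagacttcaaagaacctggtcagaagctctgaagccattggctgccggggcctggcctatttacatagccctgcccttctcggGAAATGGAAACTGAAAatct
Oas1c, chr5:120812515-120812764, minus strand: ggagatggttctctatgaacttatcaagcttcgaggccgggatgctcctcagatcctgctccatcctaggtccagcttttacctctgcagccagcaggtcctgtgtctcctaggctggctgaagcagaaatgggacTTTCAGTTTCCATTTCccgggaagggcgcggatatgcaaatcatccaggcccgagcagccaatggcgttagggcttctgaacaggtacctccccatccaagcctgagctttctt
Oas1f, chr5:120847117-120847366, plus strand: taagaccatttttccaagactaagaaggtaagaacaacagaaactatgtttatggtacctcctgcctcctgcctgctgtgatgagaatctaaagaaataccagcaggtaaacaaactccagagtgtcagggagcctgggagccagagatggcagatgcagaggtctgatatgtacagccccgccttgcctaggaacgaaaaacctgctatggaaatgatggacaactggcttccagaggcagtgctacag
Oasl2, chr5:114896684-114896933, plus strand: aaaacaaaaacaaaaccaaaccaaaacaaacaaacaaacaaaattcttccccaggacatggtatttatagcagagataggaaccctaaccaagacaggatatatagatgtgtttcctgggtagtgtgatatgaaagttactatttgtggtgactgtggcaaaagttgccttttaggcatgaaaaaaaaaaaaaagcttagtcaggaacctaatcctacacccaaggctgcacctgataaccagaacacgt
Oas1a held 2 overlapping matches that begin 20 and 14 bases before the start, and Oas1c held 2 that begin 114 and 108 bases before it on the other strand. Oas1f and Oasl2 held none in these windows. The table has 8 Oas promoters, of which 4 held a match, those of Oas1a, Oas1c, Oas1g and Oas3, against 2.98% of all 32851 promoters. A match is a description of letters, and no match says only that these letters are not in this window. The Oas1c window also runs into Oas1b, annotated at chr5:120812635-120824163. Its matches lie between Oas1c and Oas1b, so they cannot be assigned to Oas1c alone. The windows of Oas1a and Oas1c share the letters while these genes differ in their measured ratios, and most Oas1c values are repeated.

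Of 5 listed partners of the 2-5A pathway 3 were tested, and none passed in any comparison. Abce1, an ATP-binding cassette protein, differed by -0.62 ± 0.38 in Her2/Neu+ minus WT and by -0.13 ± 0.33 in Her2/Neu+/IFNAR1-/- minus IFNAR1-/- glands. Pde12 and Akap7, which are both known to degrade 2-5A, differed by -0.72 ± 0.48 and -0.44 ± 0.29 in Her2/Neu+ minus WT, and by 0.31 ± 0.39 and 0.44 ± 0.25 in Her2/Neu+/IFNAR1-/- minus IFNAR1-/- glands.

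Upstream of the Oas genes, 8 of 9 genes of the receptor and ISGF3 list were measured. None passed in Her2/Neu+ minus WT glands, and only Stat2, the ISGF3 subunit specific to type I and III interferon, rose in Her2/Neu+/IFNAR1-/- minus IFNAR1-/- glands, by 1.54 ± 0.40 (limma adjusted p = 0.0489). Over all genes, 0.942% rose there. Irf9 differed by 1.04 ± 0.39 and Irf7 by 2.16 ± 0.74 there without passing (limma adjusted p = 0.146 for Irf9 and 0.120 for Irf7), and by 0.70 ± 0.45 and 2.58 ± 0.82 in Her2/Neu+ minus WT glands. None of the 16 listed type I interferon genes was among those tested. Of 8 measured RNA sensors, 0 passed in any comparison. The nearest in Her2/Neu+ minus WT was Ddx58, which encodes the sensor RIG-I, at 1.11 ± 0.35 (limma adjusted p = 0.174).

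Other interferon-induced effectors gave 1 of 27 measured genes risen in Her2/Neu+ minus WT glands, against 0.113% of all genes. It was Apol9b, at 2.80 ± 0.59 (limma adjusted p = 0.0402). There were 5 of 27 risen in Her2/Neu+/IFNAR1-/- minus IFNAR1-/- glands, against 0.942% of all genes. The 3 with the smallest p there were Rtp4, which restrains viral replication, at 3.06 ± 0.60 (limma adjusted p = 0.0114), Apol9a at 2.40 ± 0.51 (adjusted p = 0.0195) and Usp18, which removes Isg15 from proteins and damps receptor signalling, at 2.75 ± 0.60 (adjusted p = 0.0258). None fell in either comparison. Their median change was 0.55 in Her2/Neu+ minus WT and 0.78 in Her2/Neu+/IFNAR1-/- minus IFNAR1-/- glands. Among 12 measured genes that lean towards interferon-gamma, Gbp3, a guanylate-binding protein, rose in Her2/Neu+/IFNAR1-/- minus IFNAR1-/- glands by 2.22 ± 0.55 (limma adjusted p = 0.0424) and none passed in Her2/Neu+ minus WT glands. Over all genes, 0.942% and 0.113% rose in these comparisons, in that order. Whether the Oas genes differ from these lists was not tested.

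The genes most like the mean of the 8 Oas genes over the 30 arrays, among 10778 compared, were led by Isg15, a ubiquitin-like interferon-induced protein (r = 0.921, and 0.849 after subtraction of group means). Apol9b (0.900 and 0.787), Rtp4 (0.884 and 0.716) and Ifit3 (0.868 and 0.668) are also in the effector list. Casp1, the inflammatory caspase (0.885 and 0.748), Xbp1, a factor of the unfolded protein response (0.877 and 0.753), Ier3 (0.869 and 0.725) and the carbonic anhydrase Car6 (0.868 and 0.689) are in none of the lists. The median r over all genes was 0.05. These values share their arrays and reference RNA and are given as a description.

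Of the measured markers of luminal, basal, macrophage, dendritic, neutrophil, T and NK, B, adipocyte, endothelial and skeletal muscle cells, none passed in Her2/Neu+ minus WT glands. Adipocyte markers averaged from 4.79 to 5.62 over all arrays, and endothelial markers up to 5.735. These lie near the limit of 6 of the deposited scale, which could hide a difference. In Her2/Neu+/IFNAR1-/- minus IFNAR1-/- glands only the basal keratin gene Krt14 passed, falling by 2.47 ± 0.59 on the log2 scale (limma adjusted p = 0.0413). Macrophage markers, 7 of 10 measured, averaged from 1.08 to 3.32 on Her2/Neu+/IFNAR1-/- arrays, from 1.28 to 2.42 on Her2/Neu+, from 1.68 to 2.55 on IFNAR1-/- and from 0.93 to 2.08 on WT arrays, ranges that overlap. Dendritic markers, 5 of 10 measured, averaged from 0.45 to 2.07, from 0.24 to 1.36, from 0.37 to 1.60 and from 0.22 to 2.08 in the same order of groups. Endothelial markers, 4 of 7 measured, averaged 2.53 on Her2/Neu+/IFNAR1-/- array 103 and 2.04 on Her2/Neu+ array 113, against a lowest value of 4.70 on IFNAR1-/- and 4.65 on WT arrays. Luminal epithelial markers, 9 of 12 measured, averaged from 1.14 to 3.76 on Her2/Neu+/IFNAR1-/-, from -0.10 to 3.51 on Her2/Neu+, from 0.49 to 3.63 on IFNAR1-/- and from 1.62 to 3.09 on WT arrays. Among Her2/Neu+ glands they averaged 3.51 on array 118, 3.40 on array 120, 3.23 on array 113, 2.85 on array 119, 2.32 on array 115 and -0.10 on array 114. Oasl2 stood at 3.44, 2.69, 1.95, 1.60, 0.42 and -0.09 on these arrays, which is the same order, and its value on array 114 is repeated. Oas1a, Oas1f, Oas2 and Oasl1 did not keep that order. The Oas1a gene mean, for one, stood at 1.27 on array 113 and 2.80 on array 119. Without array 114 the same 3 genes passed in Her2/Neu+ minus WT. The part of cell composition in the Oas values was not tested.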

How the data were processed

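Gland RNA was labelled with Cy5 and the reference RNA with Cy3 on 2-colour Agilent arrays, per the labels. The authors deposited 1 log2 ratio per probe and array, with the direction taken from the dyes and the base inferred from values that stop at a size of 6, or 64-fold. Background correction and normalization are not given in the sources used here. Probes were named through the platform annotation, with symbols updated by gene identifier (17376 named, 3520 unnamed). A gene's value is the mean of its kept probes. Promoter sequences and coordinates are from RefSeq, GRCm38.p6.

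Differences were tested with limma 3.58.1 in R 4.3.3 (lmFit and eBayes, two-sided), in 1 fit over 30 arrays with a mean per group, for 11463 genes and for 19525 probes. Correlations used permutations within groups. The labels number separate samples, and nothing says more of their independence, so a p-value reflects only how these samples spread. The fit was also run on simulated data with independent errors. Those data held no slide effects, repeated values or limit of the scale, so the run cannot address these features. Named were all Oas genes, all measured 2-5A partners and receptor genes, up to 3 passing members of other lists (or the one with the smallest p), and the 8 genes most like the family. Some items are not reported here. The members and lists were chosen with earlier results of these data known. Alternatives covered scaling, filters, probe choice, array weights, slide, set, position, repeated values and single arrays.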

Additional observations from a re-analysis of the deposited data

Results flagged for a closer look

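Single arrays standing apart from their group by Dixon's gap test were found in 8 of 48 sets of arrays (an Oas probe or 2-probe mean in a group). Chance gives about 1 in 20 for independent sets of normally distributed values. The 2-probe means share values with their probes, and most values of probes 4051 and 34282 and of Oas1c and Oas3 are repeated. The count therefore cannot be set directly against that rate. Oas1b probe 34282 stood at 4.92 on Her2/Neu+/IFNAR1-/- array 110, with the other arrays between -0.18 and 1.36, and at 4.39 on WT array 56, with the others between -0.70 and -0.01. Both are values that occur on their array no more than once. The Oas1b gene mean followed, at 2.87 on array 110 and 2.60 on array 56, while probe 10312 of the same gene read 0.83 and 0.81 there. Probe 10312 was low, at -0.56, on IFNAR1-/- array 42, one of the arrays high in muscle markers. Oas1a probe 4051 was at -3.28 on IFNAR1-/- array 44, a repeated value. Oas1c was at 0.69 on Her2/Neu+ array 120, and Oas3 at -0.57, a repeated value, on WT array 60. No Oas gene passed the interaction test.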

How the results depend on the processing

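Oas genes called in Her2/Neu+ minus WT numbered 3, but 0 at an adjusted p under 0.01, 0 with the slide as a random block (either estimate of its correlation), 0 within array set 1 (1 of all genes called), 0 within set 2 (745 of all genes) and 5 with array weights (202 of all genes, against 15 without), 4 with repeated values missing (Oasl1 added), and 0 to 4 when single arrays were left out. In Her2/Neu+/IFNAR1-/- minus IFNAR1-/- the 4 called genes became 1 at 0.01, 1 when the fit held just those groups, 0 or 1 with the slide block, 0 in set 1 (2 of all genes), 0 in set 2 (6 of all genes), 5 with repeated values missing (Oasl1 added), and 3 to 5 without single arrays. Oas2 was lost without Her2/Neu+/IFNAR1-/- array 105, 109 or 110 or IFNAR1-/- array 44, 46 or 47, and Oas1a in Her2/Neu+ minus WT without WT array 54, 56, 57, 59 or 60. In Her2/Neu+/IFNAR1-/- minus WT the count of 0 became 1 (Oasl2) with array weights, with repeated values missing, whether or not values at the limit were kept, and 0 to 1 without single arrays. For probes, the 3 called in Her2/Neu+ minus WT became 0 with the slide block, 0 in set 1 and 0 in set 2 (0 to 4 without single arrays), the 4 in Her2/Neu+/IFNAR1-/- minus IFNAR1-/- became 1 with the slide block, 0 in set 1 and 1 in set 2 (3 to 4), and the 0 in Her2/Neu+/IFNAR1-/- minus WT became 1 with repeated values missing (0 to 1). The causes were not tested. The slide correlation over all features, the setting that kept values at the limit, and the array sets and single arrays for probes were chosen after seeing the data.

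Of 901 single-gene values outside the single-array settings, 836 kept direction and call, 30 lost and 7 gained a call, and 28 changed sign, none of them called. These were, with quantile scaling, the interaction of Oas1a (-0.24) and Oas2 (-0.17), with a value on every array Oas1b in Her2/Neu+ minus WT (-0.036), with the probe of largest SD Oas1b in Her2/Neu+/IFNAR1-/- minus Her2/Neu+ (-0.11), with array weights the same difference (-0.080) and the interaction of Oas1a (-0.059) and Oas2 (-0.51), and with block number Oas1c in Her2/Neu+/IFNAR1-/- minus IFNAR1-/- (-0.059). In set 1, Oas1c changed sign against Her2/Neu+ (-0.13), IFNAR1-/- (-0.25) and WT (-0.15) and in the interaction (-0.23), as did Oas1a there (-0.998). In set 2, Oasl2 in IFNAR1-/- minus WT (0.062), Oas1b in Her2/Neu+ minus WT (-0.028), Oas3 (-0.036) and Oasl1 (-0.097) in Her2/Neu+/IFNAR1-/- minus WT and the Oas1f interaction (0.27) did. With repeated values missing, limit kept or not, these were Oas1b in Her2/Neu+ minus WT (-0.036) and the Oas2 interaction (-0.051). Without the last slide Oas1b minus its Her2/Neu+ level in Her2/Neu+/IFNAR1-/- glands was -0.022, beside the interaction of Oas1a (-0.0032) and Oas2 (-0.24), and without IFNAR1-/- arrays 41, 42 and 44 (array 106, also high in muscle markers, was kept) Oas3 in IFNAR1-/- minus WT (0.050) and Oas1c in Her2/Neu+/IFNAR1-/- minus IFNAR1-/- (-0.19) and in the interaction (-0.093). Without single arrays, Oas1c ran from -0.057 to 0.22 in IFNAR1-/- minus WT, -0.23 to 0.015 in Her2/Neu+ minus WT, -0.16 to 0.21 in Her2/Neu+/IFNAR1-/- minus IFNAR1-/-, -0.056 to 0.28 in Her2/Neu+/IFNAR1-/- minus WT and -0.062 to 0.31 in the interaction. Oas1b ran from -0.079 to 0.38 in Her2/Neu+ minus WT, -0.17 to 0.20 in Her2/Neu+/IFNAR1-/- minus Her2/Neu+, -0.12 to 0.49 in Her2/Neu+/IFNAR1-/- minus WT, Oas3 from -0.13 to 0.038 in IFNAR1-/- minus WT and -0.021 to 0.085 in Her2/Neu+/IFNAR1-/- minus WT, and the interaction from -0.32 to 0.43 for Oas1a and -0.13 to 0.67 for Oas2. No paired analysis was possible because the groups share no replicate numbers.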
